A study of Mus musculus with 18 samples.

Results

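Hepatic transcript levels of NPC1L1 liver transgenic mice were compared with those of wild-type mice. The samples were chosen by their titles, 5 NPC1L1-Liver-Transgenic and 5 wild type, which makes 10 of the 18 arrays in the series. Both groups were female C57BL/6 mice aged 6 to 8 weeks, total RNA came from the liver, and the labels name no treatment, diet or second allele for either group. The sources used here do not give the promoter or the species of the transgene, the number of founder lines, or whether the wild-type mice were littermates. They also do not say whether each array came from a separate animal, so the p-values below rest on a spread between samples that may be technical in part. The study used the transgenic mice as a model in which cholesterol leaves through the intestinal wall, a path separate from bile, at a chronically raised rate, and looked for regulators of reverse cholesterol transport.

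NPC1L1 is a membrane protein that takes up free sterols, in the mouse mainly in the intestine. In hepatocytes a fall in sterols at the endoplasmic reticulum releases SREBP2, the transcription factor that switches on the genes of cholesterol synthesis, while excess cholesterol leaves as bile acids, in bile or in lipoproteins. The proteasome, which the results below turn on, is a barrel of alpha and beta subunits, the 20S core, closed by the 19S cap, which binds ubiquitinated proteins, removes the ubiquitin and unfolds them for degradation.

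Levels are given as log2 values, on which a difference of 1 is a doubling, and an array is named by its group and number. Npc1l1 itself read 3.73, 3.63, 3.66, 3.93 and 4.16 on the wild-type arrays and 3.73, 3.75, 3.68, 3.61 and 3.60 on the transgenic arrays (limma adjusted p = 0.691). These values lie near the bottom of the scale in both groups and overlap. Since the labels do not say which species the transgene comes from, the mouse probe set is no check of the group labels. Hepatocyte markers were abundant, with mean levels between 11.9 and 12.1 on every array, and Alb, the albumin gene, named after its values were seen, averaged 13.6 in both groups. Probe sets for the 3′ and 5′ ends of control transcripts, a sign of RNA integrity, differed on average by 0.906 ± 0.085 in wild-type and 1.02 ± 0.175 in transgenic liver for Actb (SD, n = 5, two-sided exact permutation p = 0.254, adjusted over 3 control genes p = 0.619). For Gapdh and Pcx the exact permutation p was 0.413 and 0.786 (adjusted p = 0.619 and 0.786), where 0.00794 is the smallest that 5 against 5 arrays allow.

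The array of wild type 2 stood apart from the other 9. It held 56 genes that were more than 1 above the highest of the other 9 arrays, against 0 to 6 such genes on any other array, and 3 genes more than 1 below the lowest, against 0 to 3. The first principal component took 33.8% of the variance of the 10 arrays, with wild type 2 at 31.4 and the rest between -12.6 and 9.27. Among the 56 were 5 of 7 measured guanylate-binding protein genes (Gbp2, Gbp3, Gbp7, Gbp8 and Gbp10), 5 of 6 immunity-related GTPase genes (Igtp, Ifi47, Irgm1, Irgm2 and Tgtp1), both families induced by interferons, and 4 of 32 chemokine genes (Ccl2, Ccl7, Cxcl9 and Cxcl10). Of 7 measured genes of the Clec4 family of C-type lectins 1, Clec4e, was among the 56. Of 361 genes of the Slc and Mfs transporter families 0 were among the 56, which is near the share of 56 in all 17097 genes. Wild type 2 was examined because its immune genes were already known to be high, so these family counts are a description.

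Timd4, a phosphatidylserine receptor of resident macrophages, read 7.53 on wild type 2 and between 3.84 and 4.76 on the other arrays. Marco, a macrophage scavenger receptor, read 10.30 there against 5.58 to 8.53 elsewhere. Cxcl10, a chemokine induced by interferon gamma, read 9.89 against 5.36 to 7.85. Those genes, with Acod1 (8.89), which makes the antimicrobial metabolite itaconate, the checkpoint ligand gene Cd274 (8.49), and the lipopolysaccharide coreceptor gene Cd14 (7.86), were among the 12 by which wild type 2 exceeded the other arrays most. The others of the 12 were BC023105, Chil3, Tgtp1, Nfkbie, Calhm6 and Fpr2.

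At the other end, G6pc, the catalytic subunit of glucose-6-phosphatase, read 6.55 on wild type 2 and between 9.08 and 10.60 elsewhere. The lysolipid transporter gene Mfsd2a read 6.71 against 8.06 to 9.99, and the deadenylase gene Noct 6.54 against 7.75 to 9.71. Kcnk5, Usp2 and Nmrk1 were the next 3 genes in that direction, at 5.55, 8.03 and 7.21. These 6 genes were picked as those on which wild type 2 lay furthest below the other arrays, so its lowest place follows from the choice.

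**Figure D1:**
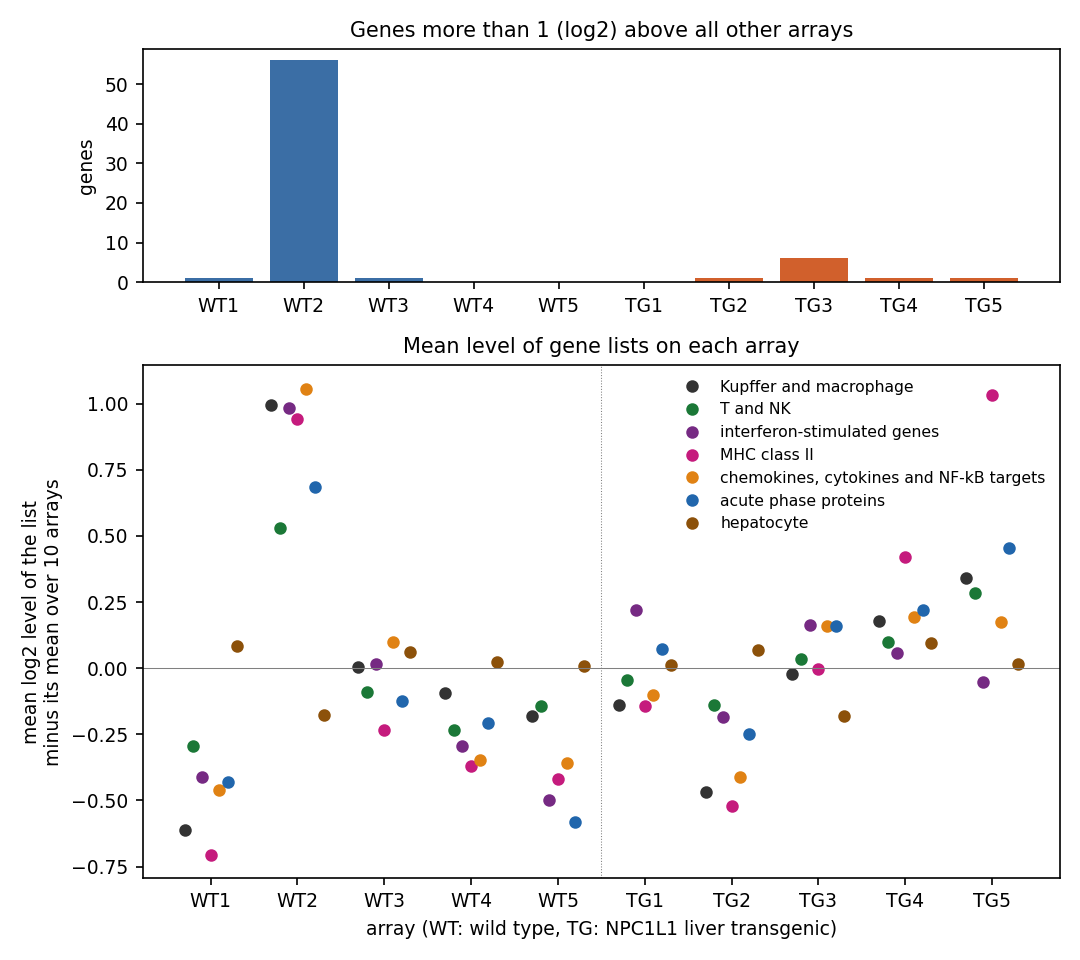
Upper panel, number of genes lying more than 1 (log2) above all other arrays on each of the 10 arrays (WT: wild type, TG: NPC1L1 liver transgenic). Lower panel, mean log2 level of 7 gene lists on each array, minus the mean of the list over the 10 arrays. Wild type 2 has 56 such genes and the highest means of the Kupffer cell, T and NK cell, interferon, chemokine and acute phase lists, and MHC class II is highest on transgenic 5.

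Over marker lists the mean of the same array was high. Over the 12 Kupffer cell and macrophage markers measured, its mean was 9.46, against 7.86 to 8.47 on the other wild-type and 8.00 to 8.81 on the transgenic arrays. Of these markers Clec4f was highest on wild type 3 (8.86) and read 8.70 on wild type 2. Only 2 of the 12, Timd4 and Marco, lay more than 1 above every other array on wild type 2. Interferon-stimulated genes (26 measured) averaged 8.64 there, against 7.15 to 7.67 and 7.47 to 7.87. The mean of 12 T and NK cell markers was 5.86, against 5.04 to 5.24 and 5.19 to 5.61, and that of 6 neutrophil markers 5.40, against 4.61 to 4.95 and 4.64 to 4.99. Not every member was high. Cd3e, Cd3g and Cd8a read 6.45, 5.15 and 5.245 on wild type 2, below 6.454, 5.33 and 5.40 on the highest other array. Of the 6 neutrophil markers 1, S100a8, lay more than 1 above all other arrays, and Mpo was lowest on wild type 2 (4.14). The hepatocyte mean was 11.85 on wild type 2 and 11.85 on transgenic 3, and from 12.04 upward on the other 8 arrays. In bulk liver RNA more cells of a type and more RNA per cell cannot be told apart. Because 1 array has no replicate, no test was made of it, and values without it are given beside those gene groups described below whose median it moved most or turned in sign.

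Of the 17097 genes measured, limma called 13 between transgenic and wild-type liver at a Benjamini-Hochberg adjusted p under 0.05 (0.076%), 12 higher and 1 lower. Changes were small: the median absolute difference over all genes was 0.06, the median standard error 0.07, and 18 genes differed by over 2-fold, 15 upward and 3 downward. At an unadjusted p under 0.05 there were 1573 genes, 941 higher (5.5% of all) and 632 lower (3.7%), and 52.6% of all genes lay above 0. Every transgenic array exceeded every wild-type array for 245 genes (1.43%) and lay below for 136 (0.795%). Without wild type 2 the counts were 13 called (10 higher and 3 lower, 10 of them among the first 13), 6.43% of genes higher and 4.25% lower at an unadjusted p under 0.05, and 51.6% above 0. These percentages are the background for the counts given below.

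The 13 called genes were few enough to name. Those of the proteasome were Psmd14, Psmb3, Psmb5, Psmd1, Psmd2, Psmc3 and Psmd4, 7 of 12 rises. The other rises were those of Dio1, Ifi27, Acyp2, Unc13b and Rexo2, and the fall was that of Gpx6. The change was over 1.5-fold for 5 of them and over 2-fold for 1.

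Dio1, the type 1 deiodinase that converts thyroxine into the active hormone, read 8.68, 8.22, 8.57, 8.14 and 9.03 on the wild-type arrays and 9.57, 9.73, 10.54, 9.88 and 9.64 on the transgenic arrays. All 5 transgenic arrays lay above the highest wild-type array, and transgenic 3 was the highest. Dio1 rose by 1.34 ± 0.20 (SE), or 2.54-fold (limma adjusted p = 0.0437), and the difference was 1.27 without wild type 2 (limma adjusted p = 0.0856). Of 15 selenoprotein and thyroid hormone responsive genes measured, Dio1 among them, 8 lay above 0, Dio1 alone had an unadjusted p under 0.05, and the median was 0.01 (-0.01 without wild type 2).

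Ifi27, an interferon-inducible gene, stood at 9.12, 9.29, 9.11, 9.20 and 9.19 across the 5 wild-type arrays and at 10.32, 10.28, 9.90, 9.95 and 9.81 across the 5 transgenic arrays. It rose by 0.87 ± 0.10 (SE, limma adjusted p = 0.0183), and its second probe set rose by 0.92. Wild type 2 was not apart from its group for Ifi27, and without it the rise was 0.90 (limma adjusted p = 0.0225). Ifi27l2b, of the same family, differed by 0.59 with no overlap between groups (limma adjusted p = 0.116). Among the 26 interferon-stimulated genes measured, Ifi27 was the only member with an unadjusted p under 0.05 on all 10 arrays.

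Acyp2, an acylphosphatase gene, stood at 5.96, 6.01, 5.79, 5.91 and 5.77 across the 5 wild-type arrays and at 6.67, 6.22, 6.86, 6.69 and 6.72 across the 5 transgenic arrays. It rose by 0.74 ± 0.11 (SE, limma adjusted p = 0.035), with transgenic 2 the lowest of its group and still above all wild-type arrays. Unc13b, which primes vesicles for exocytosis, read 4.52, 4.72, 4.86, 4.396 and 4.65, then 5.17, 5.22, 5.15, 5.32 and 5.22, and rose by 0.59 ± 0.08 (SE, limma adjusted p = 0.035). Its level is low, close to the 4.85 under which the lowest 40% of genes lay, and its other probe set, lower still, differed by -0.03. Rexo2, an oligoribonuclease that acts in mitochondria, read 9.89, 9.94, 9.91, 9.87 and 9.99, then 10.34, 10.22, 10.22, 10.38 and 10.35, a rise of 0.38 ± 0.05 (SE, limma adjusted p = 0.0296). The spread within each group was under 0.1 (SD) for this gene, so that its 1.30-fold rise passed the test.

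Gpx6, of the glutathione peroxidase family, stood at 6.17, 6.12, 5.99, 6.25 and 6.33 across the 5 wild-type arrays and at 5.57, 5.33, 5.18, 5.50 and 5.44 across the 5 transgenic arrays. It fell by 0.77 on the log2 scale (SE 0.09, limma adjusted p = 0.0183), with no overlap between groups. It was the only gene called lower with all 10 arrays. Mme, the neprilysin gene, and Cfap20 were called lower besides it without wild type 2, by -0.48 and -0.41 (limma adjusted p = 0.0465 and 0.0489), and Dynll1, a dynein light chain gene, was called higher, by 0.46 (limma adjusted p = 0.0225).

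**Figure D2:**
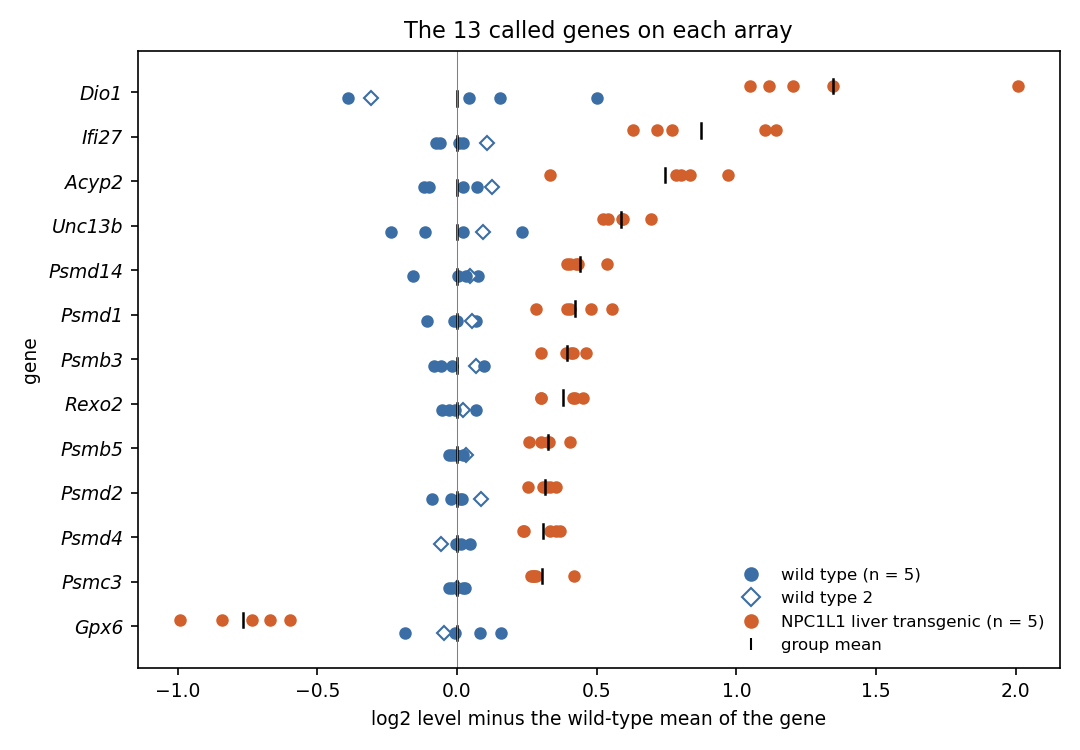
Log2 level of the 13 called genes on each array, minus the wild-type mean of the gene, for wild type (n = 5) and NPC1L1 liver transgenic arrays (n = 5), with short vertical lines at the group means and wild type 2 as an open diamond. The groups do not overlap for any of the 13 genes, Dio1 rises most, by 1.34, and Gpx6 is the gene that falls.

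These calls lie near the threshold, and the count depends on single arrays. Of the fits that left out 1 array, limma called 0 genes without wild type 1 (1487 at an unadjusted p under 0.05), 13 when wild type 2 was left out, 2 when wild type 3 was, 4 when wild type 4 was and 6 when wild type 5 was. It called 2 without transgenic 1, 1 without transgenic 2, 2 without transgenic 3, 0 without transgenic 4 (1484 at an unadjusted p under 0.05) and 5 without transgenic 5. The highest adjusted p of a called gene in these 10 fits lay between 0.0714 (Gpx6 and Ifi27) and 0.161 (Dio1 and Psmd4), and 0 of the 13 changed direction. Gpx6 kept its call in 7 of the 10 fits and Ifi27 in 6. The direction of each was the same in every such fit, with differences between 1.18 and 1.47 for Dio1, 0.80 and 0.93 for Ifi27, 0.40 and 0.46 for Psmd14, and -0.81 and -0.71 for Gpx6.

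Proteasome subunit genes lay on the same side, above wild type, in transgenic liver. Of 30 genes measured for the 20S core and the 19S cap, 30 lay above 0 and 27 (90.0%) had an unadjusted p under 0.05 in that direction, against 5.5% of all genes. The groups did not overlap for 20 of them (66.7%), against 1.43% of all genes. The median difference was 0.25 over the 30 genes, against 0.01 over all genes, and it was 0.24 without wild type 2. The 14 core genes measured had a median of 0.19 and the 16 cap genes one of 0.28, and no single array moved either median by over 1.5 times. The difference was thus small for each gene and had the same direction in all 30.

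Among the catalytic core subunits, Psmb5, which carries the chymotrypsin-like activity, stood at 9.85, 9.88, 9.82, 9.83 and 9.87 across the 5 wild-type arrays and at 10.18, 10.11, 10.15, 10.26 and 10.18 across the 5 transgenic arrays. It rose by 0.32 ± 0.04 (SE, limma adjusted p = 0.0296). The other catalytic genes, Psmb6 and Psmb7, differed by 0.17 and 0.12 (limma adjusted p = 0.268 and 0.742). Psmb3, a structural beta subunit, read 10.62, 10.70, 10.58, 10.55 and 10.73, then 11.10, 11.02, 11.05, 11.04 and 10.94, and rose by 0.40 ± 0.05 (SE, limma adjusted p = 0.0296). The 7 alpha subunits that form the outer rings, Psma1 to Psma7, differed by between 0.13 for Psma7 and 0.26 for Psma1, and limma called 0 of them. Psma7 illustrates how the probe set matters, since its second probe set, also of high signal, differed by 0.29.

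In the cap, Psmd14, the deubiquitinase that cleaves ubiquitin chains from the substrate, stood at 9.47, 9.44, 9.43, 9.23 and 9.40 across the 5 wild-type arrays and at 9.82, 9.79, 9.82, 9.93 and 9.80 across the 5 transgenic arrays. It rose by 0.44 ± 0.055 (SE, limma adjusted p = 0.0296), the largest rise of the 30 genes. Psmd1 and Psmd2, the large scaffold subunits of the base, rose by 0.42 and 0.31 (limma adjusted p = 0.035 and 0.0437). Psmd4, a ubiquitin receptor, read 9.997, 9.94, 10.04, 9.999 and 10.01, then 10.37, 10.23, 10.35, 10.33 and 10.24, and rose by 0.31 (limma adjusted p = 0.0437). Psmc3, of the ATPase ring, rose by 0.30 (limma adjusted p = 0.0437), and Psmc4 of the same ring differed by 0.40 with no overlap (limma adjusted p = 0.0876). At the low end Psmd8 differed by 0.07 (limma adjusted p = 0.773), and it was the smallest difference of the 30.

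**Figure D3:**
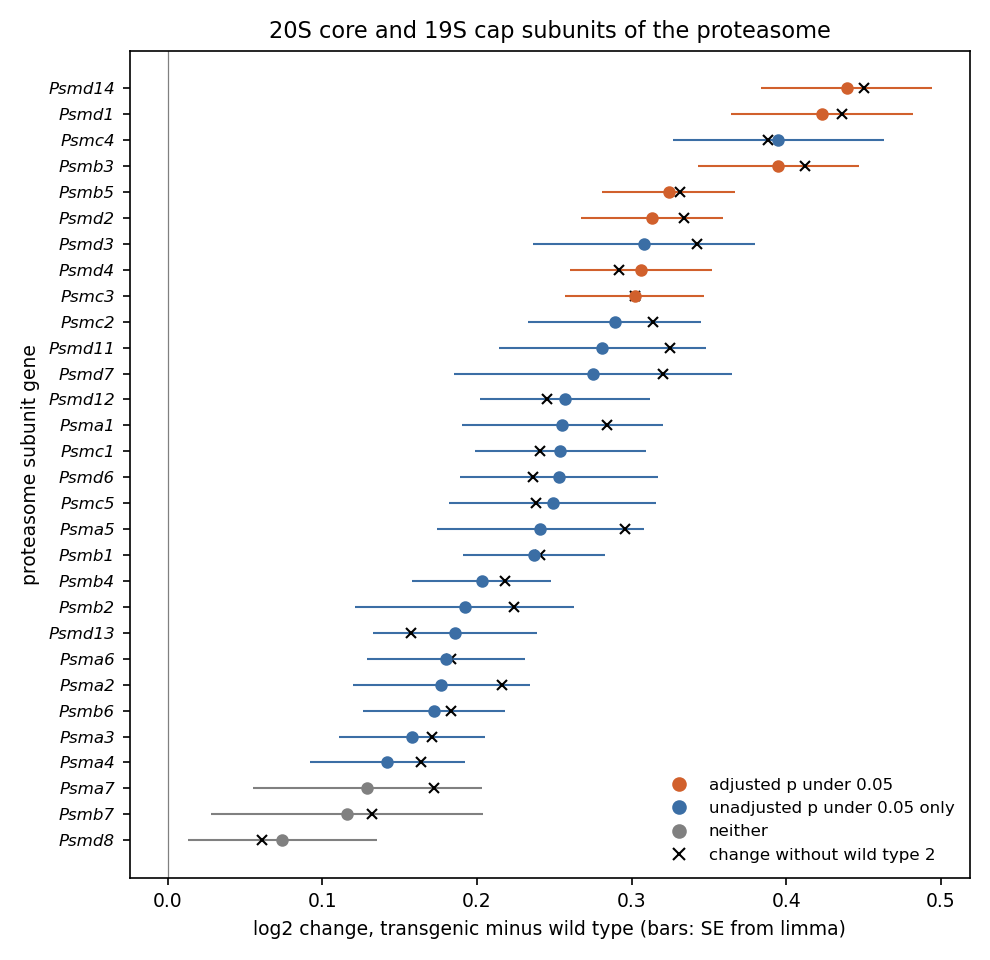
Log2 change, transgenic minus wild type, of 30 proteasome subunit genes with limma's standard error (n = 5 arrays per group), coloured by whether the adjusted or only the unadjusted p was under 0.05, and with the change without wild type 2 as a cross. With all 10 arrays the genes lie above 0 from 0.07 (Psmd8) to 0.44 (Psmd14), and all 30 lie above 0 without that array too.

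Without wild type 2 limma called 5 of the 30, Psmb3, Psmb5, Psmd1, Psmd2 and Psmd14, with 30 above 0. Limma called 0 of the 30 in each of the 6 fits without wild type 1, wild type 3, transgenic 1, transgenic 2, transgenic 3 or transgenic 4, and it called 1 when wild type 4 or wild type 5 was left out and 2 when transgenic 5 was. Other probe sets of these genes with a mean above 4.85 had the same sign in 8 of 8 cases. Genes for inducible subunits of the immunoproteasome and for antigen processing behaved otherwise, with 3 of 7 above 0, 0 with an unadjusted p under 0.05 and a median of -0.06, which was 0.12 without wild type 2. Activators and assembly factors had a median of 0.00 over 11 genes (0.07 without wild type 2). Of these, the assembly chaperone genes Pomp and Psmg3 differed by 0.25 each with no overlap between groups (limma adjusted p = 0.251 and 0.211). Nfe2l1, which encodes a transcription factor known to act on proteasome genes, and Nfe2l2, the NRF2 gene, were picked after their values were seen and differed by 0.07 and -0.31 (limma adjusted p = 0.825 and 0.206).

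Since these genes lay on the same side together, the 250 bases before their start sites were searched on both strands for 6 short motifs. Promoter sequences from RefSeq (GRCm38.p6) were matched for 24 of the 30 genes (26 promoters) and for 11 of the 13 called genes. Printed 5′ to 3′ in the direction of the gene are the promoters of 4 of the 7 called proteasome genes. That of the sterol synthesis gene Lss is added for comparison. Matches to TGACNNNGC, the core of the antioxidant response element, or to CCAAT, read as ATTGG on the other strand, are in capitals. Each of the 4 holds such a match. Psmd2, also called, was searched and holds neither, so the printed promoters do not stand for all 7. Psmb5 lies on the minus strand at chr14:54617996-54618245, Psmb3 on the plus strand at chr11:97703184-97703433, Psmd14 on the plus strand at chr2:61711444-61711693, Psmd4 on the minus strand at chr3:95042615-95042864 and Lss on the plus strand at chr10:76531355-76531604.
Psmb5: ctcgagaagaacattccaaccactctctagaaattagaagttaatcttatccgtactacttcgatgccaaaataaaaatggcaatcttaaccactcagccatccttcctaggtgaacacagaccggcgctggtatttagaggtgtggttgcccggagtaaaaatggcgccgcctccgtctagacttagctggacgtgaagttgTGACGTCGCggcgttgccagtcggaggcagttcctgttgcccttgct
Psmb3: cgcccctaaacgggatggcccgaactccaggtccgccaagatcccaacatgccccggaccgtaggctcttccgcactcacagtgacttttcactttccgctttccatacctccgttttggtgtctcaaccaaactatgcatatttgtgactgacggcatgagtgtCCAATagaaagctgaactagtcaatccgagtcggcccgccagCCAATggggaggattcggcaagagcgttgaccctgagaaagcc
Psmd14: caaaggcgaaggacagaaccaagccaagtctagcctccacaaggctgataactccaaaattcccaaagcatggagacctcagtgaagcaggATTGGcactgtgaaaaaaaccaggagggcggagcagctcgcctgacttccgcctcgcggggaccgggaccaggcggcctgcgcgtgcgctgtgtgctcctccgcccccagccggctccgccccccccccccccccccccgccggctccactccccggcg
Psmd4: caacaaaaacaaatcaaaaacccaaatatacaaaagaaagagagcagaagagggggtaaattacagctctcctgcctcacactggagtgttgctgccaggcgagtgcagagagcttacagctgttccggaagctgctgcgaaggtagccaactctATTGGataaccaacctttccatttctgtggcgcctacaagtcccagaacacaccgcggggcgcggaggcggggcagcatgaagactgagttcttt
Lss: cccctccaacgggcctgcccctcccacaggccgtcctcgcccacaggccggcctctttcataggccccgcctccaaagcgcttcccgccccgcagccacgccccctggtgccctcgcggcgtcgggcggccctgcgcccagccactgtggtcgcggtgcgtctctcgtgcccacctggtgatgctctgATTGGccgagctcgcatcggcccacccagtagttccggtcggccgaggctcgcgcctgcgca
The match in Psmb5 begins 47 bases before the start, and the CCAAT matches begin 85 and 43 bases before it in Psmb3, 159 in Psmd14, 95 in Psmd4 and 62 in Lss.

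TGACNNNGC was present in 3 of 26 proteasome promoters (11.5%), those of Psmb5, Psmb6 and Psmd12, against 10.2% of all 32851 promoters in the table. CCAAT was present in 10 of 26 (38.5%, against 33.8% of all) and the GC box GGGCGG in 13 of 26 (50%, against 32.7%). The AP-1 site TGAGTCA, the STAT site TTCNNNGAA and the sterol regulatory element TCACNCCAC were in 0 of 26, against 4.46%, 7.02% and 1.05% of all promoters. A match of these letters is a description of the sequence and does not show that a factor binds there. In the promoters of sterol synthesis genes CCAAT was in 15 of 17 (88.2%) and GGGCGG in 16 of 17 (94.1%), the antioxidant core and the AP-1 site each in 2 of 17 (11.8%), and the sterol and STAT sites each in 1 of 17 (5.88%).

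Genes that deliver substrates to the proteasome lay mostly on the same side. Of 11 ubiquitin, activation and shuttle genes measured, 10 lay above 0 and 6 had an unadjusted p under 0.05, with a median of 0.13 (0.11 without wild type 2, and 0.0621 when probe sets of a gene are averaged). Limma called 0 of them. Ufd1, a cofactor that hands ubiquitinated proteins to the p97 segregase, stood at 7.82, 7.70, 7.72, 7.72 and 7.66 across the 5 wild-type arrays and at 8.01, 7.86, 7.92, 7.95 and 7.86 across the 5 transgenic arrays, without overlap (limma adjusted p = 0.237). Ubqln2, a shuttle to the proteasome, and Ube2k, a ubiquitin-conjugating enzyme, differed by 0.25 and 0.20 (limma adjusted p = 0.374 and 0.285). Of 10 genes for degradation at the endoplasmic reticulum 8 lay above 0 with a median of 0.10 (0.0558 with the mean of probe sets), and Edem1, which recognises misfolded glycoproteins, differed by 0.19 (limma adjusted p = 0.457). Of 16 cytosolic chaperones 11 lay above 0 and 4 had an unadjusted p under 0.05, with a median of 0.10, which was 0.06 without transgenic 4 and 0.07 without wild type 4 or wild type 5, and 0.049 with the mean of probe sets. Hsph1, an HSP110 chaperone gene, was the largest of them at 0.51 (limma adjusted p = 0.315).

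In other arms of protein turnover the medians were nearer 0. Of 20 chaperones of the endoplasmic reticulum and genes of the unfolded protein response 8 lay above 0, with a median of -0.04, and 2, Pdia4 and Dnajc3, had an unadjusted p under 0.05. Autophagy genes had a median of -0.02 (3 of 11 above 0), lysosomal enzymes and membrane proteins one of 0.03 (11 of 16) and subunits of the lysosomal proton pump one of -0.07 (3 of 11). Over the 11 lists of protein turnover, core and cap included, 44 of 143 measured entries were higher at an unadjusted p under 0.05. In the lower direction there was 1. Of the 44 entries, 27 were the core and cap genes already counted above. Over all genes the shares were 5.5% higher and 3.7% lower.

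Genes of cholesterol synthesis lay in the opposite direction. Of 19 sterol synthesis genes and SREBP2 targets measured 2 were above 0, against 52.6% of all genes, and 7 had an unadjusted p under 0.05 in the lower direction, against 3.7%. The median difference was -0.24, and limma called 0 members. Fdft1, squalene synthase, the first committed step to sterols, stood at 9.18, 8.73, 8.73, 8.92 and 8.66 across the 5 wild-type arrays and at 8.07, 8.45, 8.46, 8.10 and 8.48 across the 5 transgenic arrays. Its groups did not overlap and it differed by -0.53 (limma adjusted p = 0.179). Stard4, which carries cholesterol between membranes, did not overlap either, with a difference of -0.38 (limma adjusted p = 0.0981).

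Sqle, squalene epoxidase, read 7.02, 6.25, 5.81, 5.87 and 5.62, then 5.33, 4.93, 4.84, 5.42 and 5.64, so that transgenic 5 stood just above wild type 5. It differed by -0.88 (limma adjusted p = 0.298). For Lss, which closes the ring of lanosterol, the difference was -0.68 (limma adjusted p = 0.334). The later steps varied: Msmo1, a sterol methyl oxidase, differed by -0.56 and Cyp51, lanosterol demethylase, by -0.14, while Ebp differed by 0.04 and Srebf2 itself by 0.02. Insig1, which retains SREBP2 at the endoplasmic reticulum and is itself its target, differed by -0.37 (limma adjusted p = 0.478).

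**Figure D4:**
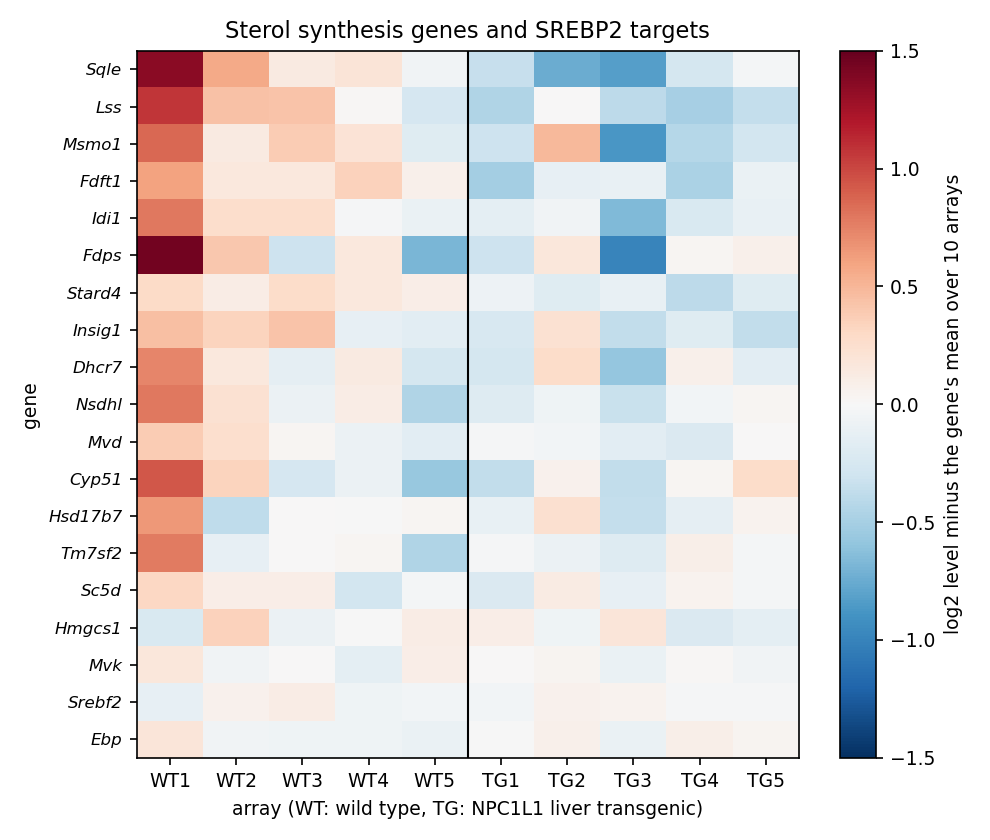
Log2 level of 19 sterol synthesis genes and SREBP2 targets on each array, minus the mean of the gene over the 10 arrays, in colour, with wild type to the left of the line. Wild type 1 has the highest list mean, 8.25, against 7.48 to 7.82 on the other wild-type arrays and 7.31 to 7.67 on the transgenic arrays.

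The group difference in this list rests in part on 1 array. Wild type 1 had a list mean of 8.25, where the other wild-type arrays lay between 7.48 and 7.82 and the transgenic ones between 7.31 and 7.67. Without wild type 1 the median difference was -0.10, without transgenic 3, the lowest array, it was -0.15, and without wild type 2 it was -0.23. LXR targets and genes of cholesterol efflux had a median of 0.04, with 5 of 9 above 0. Pltp, which transfers phospholipids between lipoproteins, stood at 7.36, 6.97, 6.71, 7.16 and 6.59 across the 5 wild-type arrays and at 6.23, 6.41, 6.23, 6.51 and 6.50 across the 5 transgenic arrays, without overlap (difference -0.58, limma adjusted p = 0.206). Abcg5 and Abcg8, which pair to form the canalicular sterol exporter and were added after their values were seen, differed by 0.05 and 0.04 (limma adjusted p = 0.930 and 0.977). Genes of lipoproteins and their processing had a median of 0.03, with 0 of 17 at an unadjusted p under 0.05 in either direction.

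Genes that turn cholesterol into bile acids lay above 0 in 10 of 13 cases, 5 with an unadjusted p under 0.05, and the median was 0.11 (0.07 without wild type 2), and limma called 0 of the 13. Cyp7b1, the oxysterol hydroxylase of the alternative pathway, stood at 9.07, 8.96, 8.90, 8.81 and 9.01 across the 5 wild-type arrays and at 9.37, 9.16, 9.48, 9.61 and 9.83 across the 5 transgenic arrays (difference 0.54, limma adjusted p = 0.133). Cyp7a1, the rate-limiting enzyme of the classical pathway, differed by 0.58 with overlapping groups (limma adjusted p = 0.315), and Baat, which conjugates bile acids to taurine or glycine, by 0.28 without overlap (limma adjusted p = 0.244). Bile acid and organic ion transporters had a median of -0.02. Slc22a7, an organic anion transporter, differed by 0.83 and Slco1a1 by -0.90 (limma adjusted p = 0.315 and 0.663), the latter spread from 7.17 to 10.48 over the transgenic arrays.

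Among lipid storage genes, G0s2, an inhibitor of the lipase that empties lipid droplets, stood at 9.71, 8.44, 9.02, 9.37 and 8.82 across the 5 wild-type arrays and at 10.21, 10.38, 10.24, 9.999 and 9.66 across the 5 transgenic arrays. Only transgenic 5 lay below wild type 1, and the difference was 1.02 (limma adjusted p = 0.164), or 0.87 without wild type 2. Fitm1, which partitions fat into droplets, differed by 0.81 without overlap (limma adjusted p = 0.158), and Plin3, a droplet coat gene, by -0.22 without overlap (limma adjusted p = 0.248). The list had 11 of 15 above 0 and a median of 0.09. For fatty acid and triglyceride synthesis the median was 0.06 (0.13 without wild type 1 and 0.02 without transgenic 2), and for fatty acid oxidation and PPARA targets 0.05, with 17 of 20 above 0 but 9 of 20 and a median of -0.01 without wild type 2. Peroxisome assembly genes lay above 0 in 10 of 11 cases, 3 with an unadjusted p under 0.05 (Pex3, Pex16 and Pex13), with a median of 0.13. Without wild type 2, the lowest array of this list, 8 of 11 lay above 0, 1 had an unadjusted p under 0.05, and the median was 0.09. Sgms1, a sphingomyelin synthase, differed by 0.29 without overlap (limma adjusted p = 0.164), in a list of 15 with a median of 0.04.

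Beyond the calls, 267 genes with a mean above 4.85 had groups that did not overlap, 189 higher and 78 lower. The largest differences upward among them, of which limma called Dio1, were those of Elovl3, Dio1, Serpina12 and Tpm2. Elovl3, an elongase of very long chain fatty acids with male-predominant expression, stood at 5.73, 4.87, 5.31, 5.95 and 5.76 across the 5 wild-type arrays and at 6.94, 7.88, 7.48, 6.22 and 6.01 across the 5 transgenic arrays (difference 1.38, limma adjusted p = 0.234). Serpina12, the adipokine vaspin, read 8.54, 8.82, 8.52, 8.34 and 7.87, then 10.08, 8.89, 8.998, 10.21 and 10.12 (difference 1.24, limma adjusted p = 0.191). In both the transgenic arrays fell into a higher and a lower set, with the lower set just above wild type. Tpm2, a tropomyosin gene, differed by 1.12 (limma adjusted p = 0.0876), and of its other probe sets the 2 with a mean above 4.85 differed by 0.97 and -0.105. Bcl6, a transcriptional repressor, differed by 0.88, but by 0.52 without transgenic 2, which read 8.48 where the other transgenic arrays read 6.56 to 6.77. Smaller differences without overlap were those of Them7 (0.62), Rhbg, an ammonium transporter (0.51), Acot11, an acyl-CoA thioesterase (0.49, limma adjusted p = 0.0819), and Agt, angiotensinogen (0.48).

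Downward, Clec2h, a C-type lectin gene, stood at 5.52, 6.78, 7.53, 6.50 and 6.62 across the 5 wild-type arrays and at 5.52, 4.32, 3.75, 4.04 and 4.62 across the 5 transgenic arrays. The difference was -2.14 (limma adjusted p = 0.0876), the largest of any gene, with wild type 1 and transgenic 1 nearly equal. The difference was -2.86 and -1.36 at 2 further Clec2h probe sets. Cib3, which binds calcium and integrins, differed by -1.08 (limma adjusted p = 0.0876). Ocln, occludin, a tight junction protein, read 7.91, 7.87, 8.49, 7.67 and 8.09, then 7.53, 7.22, 7.52, 7.27 and 7.38, a difference of -0.62 (limma adjusted p = 0.179). Marveld2, tricellulin, differed by -0.59 and Prss8, a membrane-anchored serine protease, by -0.60 (limma adjusted p = 0.243 and 0.107). The others of the 15 largest without overlap were Igfbp5 (-0.66), Abca8a (-0.56), Duxbl1 (-0.45), Ddit4l (-0.43), Irf2bpl (-0.41), Jun (-0.39) and Reck (-0.38), besides Gpx6, Pltp and Fdft1.

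Some genes differed by over 2-fold with overlapping groups and are given after their values were seen. Spink1, a secreted trypsin inhibitor, differed by 1.61 (SD 1.06 over transgenic arrays, limma adjusted p = 0.243), and S100g, a calcium-binding protein, by 1.44 (limma adjusted p = 0.234). Sult2a2, a sulfotransferase, differed by 2.13 with SDs of 1.83 and 2.98 in the groups (limma adjusted p = 0.678), so that its difference was below the spread of the transgenic arrays and close to that of the wild-type arrays. Cela2a, a pancreatic elastase gene, differed by 1.15 (limma adjusted p = 0.411), or 0.72 without transgenic 4, the highest array at 7.24. The 8 pancreatic acinar markers had a median of -0.04.

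In drug metabolism and redox genes, cytochromes P450 of families 1 to 3 had a median of 0.03 with 15 of 23 above 0, and Cyp2a5, which oxidises coumarin, differed by 0.35 (limma adjusted p = 0.331). Sulfo-, glucuronyl- and glutathione transferases had a median of 0.08 with 15 of 26 above 0, which was 0.0019 without transgenic 5. Of these, Ugt3a1 differed by 0.37 and Gstk1 by 0.21, each without overlap (limma adjusted p = 0.179 and 0.352), and Gstt2 by -0.28 (limma adjusted p = 0.333). NRF2 targets and glutathione genes had a median of 0.07 (13 of 17 above 0), which was 0.11 without wild type 2 and 0.02 without transgenic 5, and Gpx6 was their only member at an unadjusted p under 0.05. The 4 flavin monooxygenases measured had a median of -0.03. Genes with a known sex bias in mouse liver had medians that changed sign with single arrays or lay near 0: the female-predominant list had a median of 0.09, which was -0.10 without wild type 5 and -0.11 without transgenic 3, and the male-predominant list one of -0.09, with Elovl3 at 1.38 and, named after its value was seen, Hsd3b5 at -1.26 (limma adjusted p = 0.690).

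Mitochondrial and intermediary metabolism showed small shifts. Mitochondrial ribosomal protein genes lay above 0 in 25 of 29 cases, 8 with an unadjusted p under 0.05 and 5 without overlap, with a median of 0.09. Without wild type 2 the median was 0.06, and 4 had an unadjusted p under 0.05. Mrpl27 stood at 10.19, 10.17, 10.16, 10.13 and 10.06 across the 5 wild-type arrays and at 10.29, 10.41, 10.34, 10.34 and 10.34 across the 5 transgenic arrays, a difference of 0.20 (limma adjusted p = 0.179). Complex I subunits had a median of 0.06 (24 of 31 above 0), which was 0.02 without wild type 2, and complexes II to V one of 0.02 (24 of 34), which turned to -0.0067 (14 of 34) without that array. Glycolysis and gluconeogenesis, the tricarboxylic acid cycle and the urea cycle with amino acid metabolism had medians of 0.00, -0.03 and -0.01. Genes of the insulin, growth hormone and glucocorticoid response had a median of 0.02, but -0.15 without wild type 2, with 1 of 15 above 0. Igf1, the growth hormone target that circulates from liver, read 11.65, 11.60, 11.52, 11.57 and 11.55, then 11.52, 11.24, 11.10, 11.33 and 11.44, a difference of -0.25 (limma adjusted p = 0.325). Periportal hepatocyte genes lay above 0 in 2 of 10 cases with a median of -0.09, and pericentral genes in 6 of 11 with a median of 0.03. Without wild type 2, the lowest array for pericentral genes, their median was -0.03, with 4 of 11 above 0.

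The medians that moved most when wild type 2 was left out were those of MHC class II, chemokine, interferon-stimulated, macrophage and antigen processing genes. The insulin and growth hormone list above came next. Wild type 2 was the highest wild-type array for each immune and acute phase list of this paragraph. Leaving it out thus raises their mean differences by construction. Of the 26 interferon-stimulated genes 8 lay more than 1 above all other arrays on wild type 2. The higher medians and counts without that array are therefore no test of a rise in transgenic liver. Interferon-stimulated genes had a median of 0.04 with 16 of 26 above 0 on all 10 arrays, and 0.29 with 23 of 26 above 0 and 12 at an unadjusted p under 0.05 without wild type 2. MHC class II genes had a median of 0.37, which became 0.67 without wild type 2, 0.56 without transgenic 2, 0.23 without wild type 1 and 0.14 without transgenic 5. H2-Aa, an alpha chain, stood at 9.95, 11.50, 10.47, 10.26 and 10.22 across the 5 wild-type arrays and at 10.47, 10.09, 10.76, 11.26 and 11.68 across the 5 transgenic arrays. Thus wild type 2 and transgenic 5 held the highest values, on opposite sides of the comparison, and the difference was 0.37 (limma adjusted p = 0.797). Chemokines, cytokines and NF-kB targets moved from -0.05 to 0.23 and Kupffer cell and macrophage markers from 0.02 to 0.22 (6 of 12, then 12 of 12 above 0). T and NK cell markers moved from 0.08 to 0.16 and acute phase genes from 0.05 to 0.13.

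The 56 genes that stood out on wild type 2 had a median difference of -0.03 with 24 above 0, and without that array 0.44 with 54 above 0. Since they were picked for being highest on a wild-type array, the step between these values follows from the choice. Saa2, a serum amyloid gene made in the acute phase, read 10.19, 12.34, 10.94, 10.61 and 9.27, then 11.54, 10.79, 11.26, 11.85 and 12.07 (difference 0.83, limma adjusted p = 0.632), and 1.25 without wild type 2. Leaving out wild type 2 turned the sign of the median in 14 of the 70 lists, and 10 had an absolute median above 0.1 on all arrays. The part of leukocyte RNA in these differences was not tested.

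**Figure D5:**
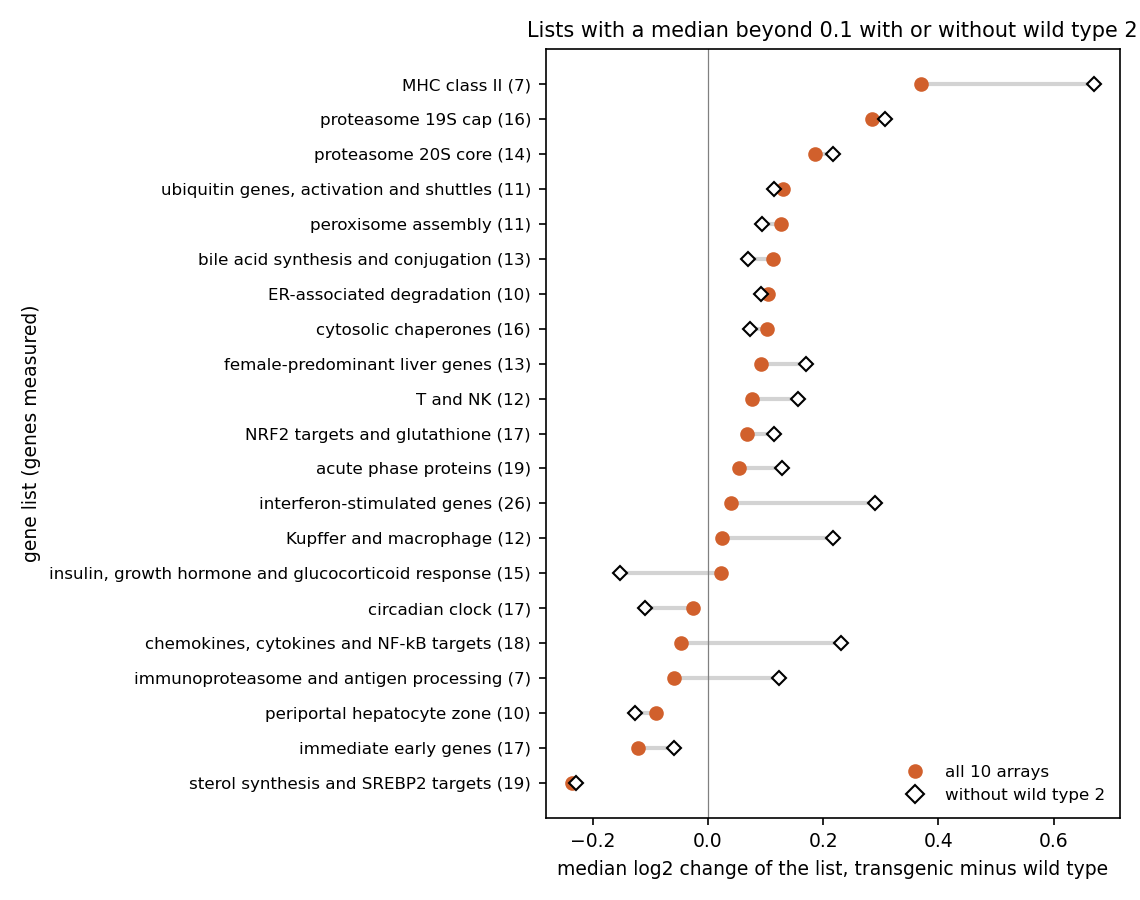
Median log2 change, transgenic minus wild type, of the lists whose median lay beyond 0.1 in either direction with all 10 arrays (filled circles) or without wild type 2 (open diamonds), with the number of genes measured. With all 10 arrays MHC class II and the proteasome lists lie highest and sterol synthesis lowest. Without wild type 2 the interferon-stimulated genes, which move from 0.04 to 0.29, and the chemokine list at 0.23 lie above the proteasome core at 0.22. Wild type 2 was the highest wild-type array for the interferon and chemokine lists, so leaving it out raises their mean differences.

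Medians of marker lists for other cell types lay near 0. They were 0.03 for sinusoidal endothelium (5 of 9 above 0), -0.02 for stellate cells and matrix (4 of 10), -0.03 for cholangiocytes (2 of 5), -0.01 for hepatocytes (3 of 9) and -0.01 for erythroid cells (1 of 3). Lrat, which stores vitamin A in stellate cells, differed by -0.24 and Pecam1, an endothelial adhesion gene, by -0.20 (limma adjusted p = 0.393 and 0.383). Monocyte and dendritic cell, B and plasma cell and neutrophil markers had medians of 0.05, -0.03 and -0.03. The medians of B and plasma cell and of erythroid markers turned to 0.03 and 0.08 without wild type 2. Jchain, the joining chain of secreted antibodies, differed by 0.78 with transgenic values from 4.48 to 6.63 (limma adjusted p = 0.588). Complement and coagulation genes, secreted mainly by hepatocytes, had medians of 0.02 and -0.03, and F11, coagulation factor XI, differed by -0.41 (limma adjusted p = 0.252).

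Of the remaining groups, immediate early genes lay above 0 in 4 of 17 cases with a median of -0.12 (-0.22 without wild type 1, and -0.06 or -0.07 when wild type 2 or wild type 3 was left out). Jun, of the AP-1 factor, stood at 7.195, 6.89, 7.13, 6.76 and 7.03 across the 5 wild-type arrays and at 6.59, 6.67, 6.44, 6.72 and 6.66 across the 5 transgenic arrays, without overlap (limma adjusted p = 0.191), and Myc differed by -0.38. Cytosolic ribosomal proteins lay above 0 in 3 of 34 cases, against 52.6% of all genes, with a median of -0.06, and their largest difference was -0.13, for Rps13 (limma adjusted p = 0.534). Ccnd1, cyclin D1, differed by -0.38 without overlap (limma adjusted p = 0.252), while the cell cycle list had a median of -0.02 (0.03 without wild type 2). Of 14 aminoacyl-tRNA synthetases 4 had an unadjusted p under 0.05, all upward, with Aars at 0.34 without overlap (limma adjusted p = 0.218). Clock genes had a median of -0.03 with 7 of 17 above 0, or -0.11 with 3 above 0 without wild type 2, the lowest array of this list, and Arntl2 differed by -0.28 without overlap (limma adjusted p = 0.125). In membrane traffic Cltb, a clathrin light chain, read 7.005, 6.95, 6.96, 6.96 and 7.11, then 7.46, 7.23, 7.26, 7.43 and 7.45 (difference 0.37, limma adjusted p = 0.0785), in a list of 12 with a median of -0.01 (0.0034 without wild type 2). Splicing factors, translation factors, nuclear receptors, vesicle coats, SNAREs and exocyst subunits had medians between -0.04 and 0.06, of which that of splicing factors turned from -0.01 to 0.03 without wild type 2. Hs3st3b1 and Mgat4b, enzymes of heparan sulfate and N-glycan synthesis, differed by -0.32 and -0.24 without overlap (limma adjusted p = 0.089 and 0.201).

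Of the 998 list members measured, limma called 10, the 7 proteasome genes with Dio1, Ifi27 and Gpx6. The lists were chosen with earlier results of these data known, so their counts are a description.

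At the level of single probe sets limma called 17 of 45037 (0.0377%), 14 higher and 3 lower. Of these 13 carried a gene symbol and 4 did not. The 13 are not the same as the called genes, since the probe sets of Dio1, Psmc3, Psmd2 and Psmd4 were not called in this fit. The strongest was a probe set without a symbol in the annotation used, which stood at 3.94, 4.09, 3.96, 3.85 and 4.10 across the 5 wild-type arrays and at 7.95, 7.87, 7.49, 7.74 and 7.41 across the 5 transgenic arrays. It rose by 3.70 ± 0.10 (SE, limma adjusted p = 1.27e-08), or 13.04-fold, from near the bottom of the scale on every wild-type array. The other probe sets without a symbol changed by 0.43, 0.35 and -2.10.

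Called probe sets with a symbol that did not stand for a called gene were those of Steap2, Ide and Atox1, beside the second one of Ifi27. Steap2, a metalloreductase, read 4.80, 4.85, 4.84, 4.76 and 4.75, then 4.18, 3.96, 4.12, 4.18 and 4.31, and fell by 0.65 on the log2 scale at this probe set (limma adjusted p = 0.00631). The probe set of higher signal that stands for the gene differed by -0.32 without overlap (limma adjusted p = 0.248), and the remaining 2 by -0.24 and -0.098. Ide, the insulin-degrading protease, rose by 0.38 at a probe set with a mean of 8.41 (limma adjusted p = 0.0386), while the probe set that stands for the gene differed by 0.26 (limma adjusted p = 0.164). Atox1, a copper chaperone, rose by 0.30 (limma adjusted p = 0.0418) at a probe set with a mean of 10.02 and differed by 0.27 at the brighter one that stands for the gene (limma adjusted p = 0.0933). For the genes called at the gene level, 5 of 6 further probe sets shared the direction of the gene, including 4 of 4 whose mean exceeded 4.85.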

How the data were processed

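Total RNA from mouse liver was labelled by the Affymetrix 3′-IVT method and hybridised to 1 array per sample, per the labels' protocols. The authors deposited log2 values for 45141 probe sets, and the submitters' processing notes name RMA, which summarises the probes of a probe set after quantile normalization. Its version and settings are not given in the sources used. Array medians lay between 4.61 and 4.65, 0 pairs of arrays were identical, and arrays carry no read depth, so their number, 5 per group, limits the precision. From 45037 probe sets other than 104 controls, 28898 had 1 symbol in the platform annotation, 551 several and 15588 none.

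Of the probe sets of a gene, that of highest mean over the 10 arrays was used, which gave 17097 genes. Groups were compared with limma 3.58.1 (lmFit and eBayes, R 4.3.3) on these 10 arrays without covariates, with Benjamini-Hochberg adjustment over all genes and a threshold of 0.05. A separate fit covered all probe sets. On simulated data of 17097 genes limma recovered 51 of 67 genes changed by 0.5, 62 of 67 changed by 1 and 66 of 66 changed by 2 (log2), with 11 calls among 16897 unchanged genes. The simulated noise was normal, independent between genes and equal in both groups, with no array set apart. These shares therefore need not hold for the real arrays.

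The comparison and the 70 gene lists (998 measured members, 3 to 34 per list) were chosen with earlier results of these data known. Genes were named by rule: Npc1l1, called genes, up to 15 genes per direction of largest change without overlap above the lowest 40% of levels, 3 per list of smallest p, and the 12 genes highest and 6 lowest on wild type 2. All members of the proteasome and sterol lists could be named, and other genes outside the rule are marked as chosen after their values were seen. Exceptions without a mark are family members counted on wild type 2, S100a8, Actb, genes called only without wild type 2, and genes of called probe sets. Alternatives were a filter on the lowest 40% of genes, array centring, quantile normalization, averaging all probe sets of a gene, trended and robust variance, array weights, all 18 arrays in 1 fit, a threshold of 0.01, a tested fold of 1.5, the replicate number as a block, and leaving out each array. Promoters were searched as letters only. Figures were drawn with matplotlib 3.10.9.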

Additional observations from a re-analysis of the deposited data

Results flagged for a closer look

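In a group of 5 arrays a value was picked out where the gap between the most extreme array and its nearest neighbour was over 0.71 of the range of the group. Of 430 such groups, over 215 genes and lists, 38 met this, where chance gives about 1 in 20 groups. Wild type 2 was the array in 22 of the 38 and transgenic 2 in 6. Many of these genes were named because they stood out on wild type 2, so their number is no measure of how often that array lies apart.

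Among list means, wild type 2 was highest of its group for monocyte and dendritic cell markers (6.312), T and NK cell markers (5.862), MHC class II (8.913), NRF2 targets (8.747) and glycosylation genes (7.001). It was lowest for hepatocyte markers (11.854), autophagy (8.587), pericentral genes (8.655), the circadian clock (6.521) and nuclear receptors (7.611). Wild type 1 was highest for adipocyte markers (5.629) and transgenic 5 lowest for lipid droplet genes (7.813).

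Among genes, wild type 2 was highest of its group for Acod1 (8.887), Actb (12.726), BC023105 (8.764), Ccl7 (4.999), Chil3 (6.647), Dynll1 (9.087), Fpr2 (8.768), Igtp (10.841), Irgm1 (10.535), Nfkbie (6.874) and Timd4 (7.528), and lowest for Mme (4.402). Dynll1 and Mme are 2 of the 3 genes called without that array only. Transgenic 2 was lowest of its group for the interferon-inducible GTPase genes Gbp7 (8.553), Ifi47 (8.684) and Tgtp1 (8.455) and for Acyp2 (6.221), and highest for Bcl6 (8.481) and Lss (5.368).

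The remaining genes were spread over arrays. Transgenic 4 was highest for the proteasome genes Psmc3 (10.09) and Psmd14 (9.929), and transgenic 3 for Psmg3 (8.303) and Aars (9.194). Transgenic 1 was lowest for Baat (9.496), wild type 1 highest for Ebp (10.64), wild type 4 highest for Igfbp5 (9.437) and wild type 3 lowest for Alb (13.468).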

How the results depend on the processing

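Limma called 13 genes with all 10 arrays and 9 to 15 with the low-level filter, array centring, quantile normalization, trended and robust variance, array weights or the mean of probe sets. The last of these gave 3 lower calls in place of 1. Leaving out 1 array gave 0 to 13 calls, with 0 to 10 higher and 0 to 3 lower, and 2 to 14 called probe sets in place of 17. The fit over all 18 arrays called 39 genes, 29 higher and 10 lower, and 78 probe sets. Against a fold of 1.5, and at an adjusted p under 0.01, limma called 0 genes, 0 higher and 0 lower (12 and 1573 at an unadjusted p under 0.05). With the replicate number as a block limma called 0 genes (0 higher, 0 lower, 1320 at an unadjusted p under 0.05) and 2 probe sets. Same-numbered arrays correlated between -0.48 and 0.16 in their deviations from the group means and 0 arrays correlated best with their own number. So few correlations cannot tell whether same-numbered arrays were paired, and the titles give only a number. Of the list medians, the proteasome activators and assembly factors ranged from -0.0016 to 0.0656 with 1 array left out, the highest without wild type 2. With the mean of probe sets, ubiquitin genes moved to 0.0621, cytosolic chaperones to 0.049 and degradation at the endoplasmic reticulum to 0.0558. The other 1046 values of list medians moved by less than the replicate spread, which does not make them stable. Among them are the interferon-stimulated genes, from 0.04 to 0.29 without wild type 2. The sterol list, from -0.24 to -0.10 without wild type 1, is another. So are the 14 lists whose median turned in sign without wild type 2. Of the 5637 values of named genes 5467 kept their side of the threshold, 153 lost and 17 gained a call. In 64 values, of 30 genes without a call, the sign differed from that with all arrays and settings as reported, 13 of them without wild type 2. Alternatives for wild type 2 (47 to 54 genes in place of 56) and the 3′ and 5′ differences were chosen after seeing the data.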
